A study of Mus musculus with 6 samples.

Results

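Small nucleolar RNAs (snoRNAs) were taken as every gene of the deposited TPM table whose symbol starts with Snora or Snord followed by a digit. The rule found 110 members among 24054 genes, of which 36 carried a Snora name and 74 a Snord name. All values come from bulk RNA-seq of c-Kit+ splenocytes, cells held by beads against the receptor CD117 (c-Kit) of blood progenitors, with 1 library per mouse. Libraries were made from poly-A selected RNA with a strand-specific kit and paired-end reads. Every mouse carried the internal tandem duplication of the receptor kinase Flt3 on both alleles (Flt3ITD/ITD). In the group called AML, for acute myeloid leukaemia, 3 animals had 1 floxed and 1 null allele of the DNA methyltransferase gene Dnmt3a with MxCre (Dnmt3afl/- MxCre), and in that called MPN, for myeloproliferative neoplasm, 3 animals had 2 floxed alleles (Dnmt3afl/fl), with no Cre named. MxCre is driven by an interferon-responsive promoter that is active in many tissues, so the genotype is not limited to one blood cell type. Ages are not given in the sources used here. Dnmt3a allele, Cre and disease changed together between the groups and cannot be told apart.

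snoRNAs are short RNAs of the nucleolus that pair with ribosomal RNA precursors and guide their modification. Box C/D snoRNAs, named Snord, guide methylation of the ribose, and box H/ACA snoRNAs, named Snora, guide the change of uridine to pseudouridine, each inside a complex of 4 core proteins. In mammals most of them lie in introns of other genes, are trimmed out of the spliced intron and carry no poly-A tail, and a few serve in cleavage of the ribosomal RNA precursor rather than in its modification.

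The sequences below belong to the snoRNAs on which the comparison of AML with MPN turned. Letters of the boxes of each class are marked where they were found, and the H box was not searched for. The sequences were read from the GENCODE M21 transcripts of build GRCm38, 5′ to 3′ and written as DNA. Capitals mark the letters TGATGA (C box) in a Snord sequence within the first 25 bases, the letters CTGA (D box) within the last 15 bases, and the letters ACA with at most 6 bases after them in a Snora sequence.
Snora43, longer entry: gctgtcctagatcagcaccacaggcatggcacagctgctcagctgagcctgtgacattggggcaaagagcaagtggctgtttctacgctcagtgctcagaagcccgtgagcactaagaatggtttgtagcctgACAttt
Snora78: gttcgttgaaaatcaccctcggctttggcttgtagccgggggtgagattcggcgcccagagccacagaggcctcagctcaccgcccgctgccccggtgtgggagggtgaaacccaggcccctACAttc
Snora26: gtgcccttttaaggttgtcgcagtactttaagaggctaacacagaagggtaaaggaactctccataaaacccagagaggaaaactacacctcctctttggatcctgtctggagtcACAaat
Snora69: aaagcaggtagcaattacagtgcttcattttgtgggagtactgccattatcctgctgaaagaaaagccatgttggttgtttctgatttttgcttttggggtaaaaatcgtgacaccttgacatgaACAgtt
Snord22: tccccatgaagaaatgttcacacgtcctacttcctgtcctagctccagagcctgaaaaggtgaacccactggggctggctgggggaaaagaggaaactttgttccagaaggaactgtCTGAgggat
Snord104: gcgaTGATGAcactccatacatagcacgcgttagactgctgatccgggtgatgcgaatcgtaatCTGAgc
Snord14c: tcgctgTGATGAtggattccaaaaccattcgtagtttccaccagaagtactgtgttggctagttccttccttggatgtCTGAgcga
Snord14d: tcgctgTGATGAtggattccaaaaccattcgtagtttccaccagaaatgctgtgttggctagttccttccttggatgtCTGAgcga

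Among 73 Snord sequences 47 (64.4%) held TGATGA and 70 (95.9%) held CTGA in these windows, on the transcribed strand. ACA stood near the end of 36 of 38 Snora sequences (94.7%). The letters of the other class were rarer. ACA lay in that window in 6 of the Snord sequences (8.2%), CTGA in 5 of the Snora sequences (13.2%) and TGATGA in 0 of them. Snord22, known as U22 and needed for making the RNA of the small ribosomal subunit, held CTGA but no exact TGATGA in its window. Snord14c and Snord14d, both copies of U14, were identical at 84 of 86 bases, so reads of one could have been given to the other and their values are uncertain. Snora43 has 2 overlapping entries in the annotation, of which the one of 127 bases lies inside that of 139 bases. Snora16a also has 2, of 136 and 137 bases, so the 38 Snora sequences belong to 36 genes.

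Dnmt3a, the gene whose alleles differ, was listed at 11.5, 13.5 and 12.9 TPM (transcript share scaled to length) in the AML libraries and at 33.9, 29.3 and 33.4 TPM in the MPN libraries. It fell by 1.28 ± 0.13 (SE) on the log2(TPM + 1) scale (adjusted p = 0.000879, limma). Kit averaged 119 ± 17.3 TPM across the AML mice and 147 ± 4.17 TPM across the MPN mice (SD, n = 3 each; adjusted p = 0.103, limma). Of the marker lists of progenitors, 4 of 7 genes were higher in AML, where 20.1% of all genes tested were higher and 10% lower. Markers of other spleen cells were mostly lower there, namely 4 of 4 for T and NK cells (summed TPM 0.94 to 2.95 in AML and 48.0 to 64.8 in MPN), 3 of 3 tested for neutrophils (620 to 2650 and 3899 to 6727), 3 of 4 for B cells (26.8 to 36.2 and 59.5 to 74.1) and 3 of 4 for macrophages (15.2 to 50 and 103 to 190). Of 3 dendritic cell markers Itgax was lower, Zbtb46 lay lower but did not pass, and Flt3, which is also in the progenitor list, was higher. Red cell markers had 1 of 4 lower, and endothelial markers 1 higher and 1 lower of 2 tested. In no list were markers at 0 in every library. Their part in the snoRNA results was not tested, and in bulk samples fewer cells of a type and less RNA per cell cannot be told apart. Relative depth, read from the value of 1 read in the RPKM table (reads for a given gene length and depth), ran from 0.739 to 1.294. MPN replicate 1 was sequenced in another run per the file headers, and AML replicates 1 and 2 expressed Xist (186 and 194 TPM against at most 0.06 in the other 4 libraries), so females were in the AML group only. The labels name no litters. The p-values set the difference of the groups against the spread between mice within them, which limma estimates partly from other genes. Without a further term they do not separate sex or run from group.

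Of the 110 snoRNAs, 91 were listed at 0 TPM in all 6 libraries. The other 19 comprised 15 of the 36 Snora genes and 4 of the 74 Snord genes. Above 0 in all 6 libraries were Snora81, in the translation factor gene Eif4a2, and Snord17, in the sorting nexin gene Snx5. A further 7 snoRNAs were above 0 in exactly 1 library. Counted by library, 17, 10 and 8 snoRNAs were above 0 in AML replicates 1 to 3 and 7, 9 and 4 in MPN replicates 1 to 3. Their summed TPM was 397, 252 and 172 in AML and 151, 227 and 47.1 in MPN. The groups overlapped in both measures, with AML replicate 1 highest and MPN replicate 3 lowest.

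**Figure D1:**
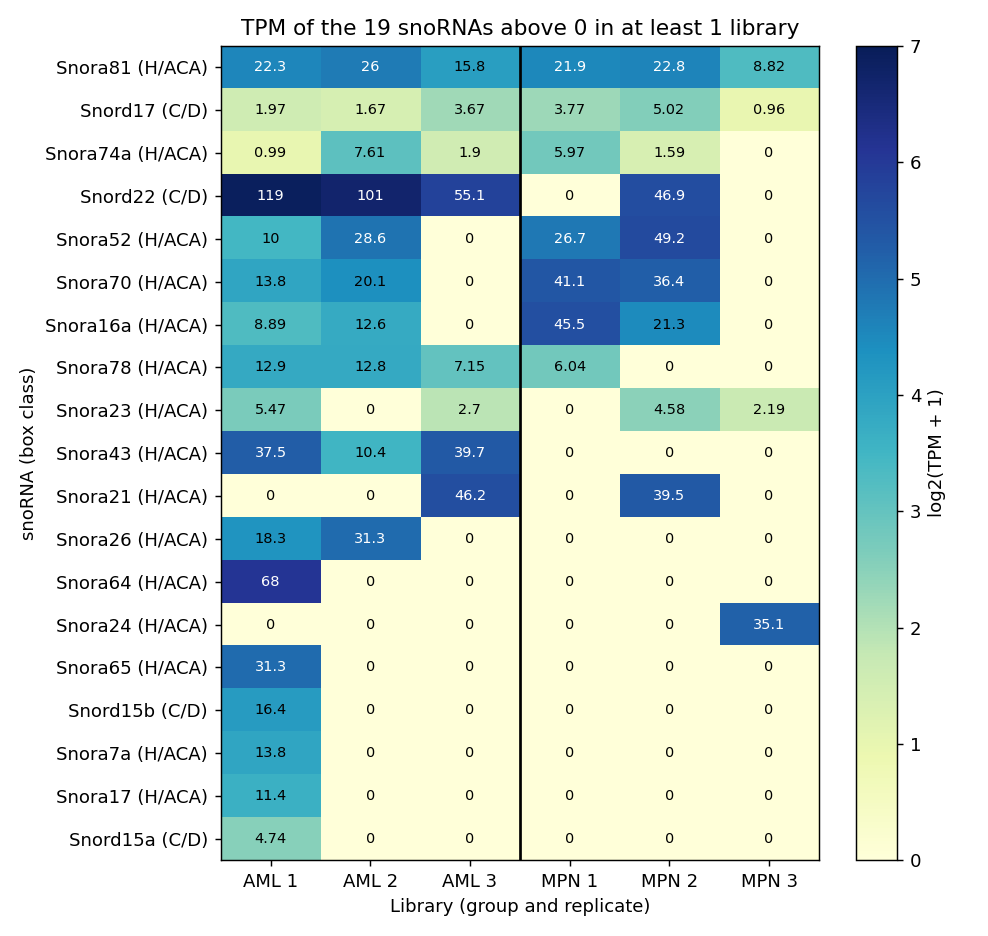
TPM of the 19 snoRNAs above 0 in at least 1 library, with 1 column per library (3 AML, 3 MPN) and 1 line per snoRNA, coloured by log2(TPM + 1). Most cells are 0, AML replicate 1 has the most values above 0 (17) and MPN replicate 3 the fewest (4).

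The listing at 0 went with length. The 19 snoRNAs above 0 were 121 to 238 bases long (median 137), and the 90 at 0 with a position in the annotation were 64 to 149 bases long (median 86). None of the 68 members shorter than 121 bases was above 0, and 7 of the 10 longest were. Among box C/D snoRNAs the 4 above 0 measured 126 to 238 bases and the 69 at 0 measured 64 to 135 bases. The box H/ACA classes overlapped, at 121 to 196 bases above 0 and 127 to 149 bases at 0.

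The RPKM table held reads for most of the snoRNAs that the TPM table lists at 0. It matched 102 members with 103 entries, because both Snora43 entries are there. For 100 of these entries the values gave whole reads, since 1 read had been added to every gene and the value of a gene without reads was known. Over the 6 libraries an entry had 6 to 3174 reads (median 446), and 75 entries had at least 10 reads in every library. Of the 91 snoRNAs at 0 TPM everywhere, 81 had reads known, 57 had at least 10 reads in every library and 31 had at least 50. Reads in the interval of a snoRNA can also come from unspliced RNA of the gene around it or, where an exon overlaps, from its spliced RNA, and the values do not tell the sources apart.

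Single members show the gap between the tables. Snora64, which lies in the ribosomal protein gene Rps2 (GRCm38 chr17:24720772-24720905, plus strand), was listed at 68.0 TPM in AML replicate 1 and at 0 in the other 5 libraries. Its reads in the RPKM table were 192, 118 and 109 in AML and 197, 163 and 121 in MPN, or 6.48, 5.17 and 6.47 RPKM in AML and 8.24, 7.23 and 5.66 RPKM in MPN, so the library with 68.0 TPM did not have the most. Snora24 was above 0 TPM in MPN replicate 3 only, at 35.1 TPM, the library where its reads were fewest (100, against 131 to 367 in the others) and its RPKM lowest (4.83, against 5.66 to 12.7). Across the members above 0 TPM in some library, the 56 values listed at 0 had 1 to 433 reads (median 87) and the 52 values above 0 had 17 to 753 reads (median 136). A value of 0 TPM is therefore a listing here, and no level is read from it.

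**Figure D2:**
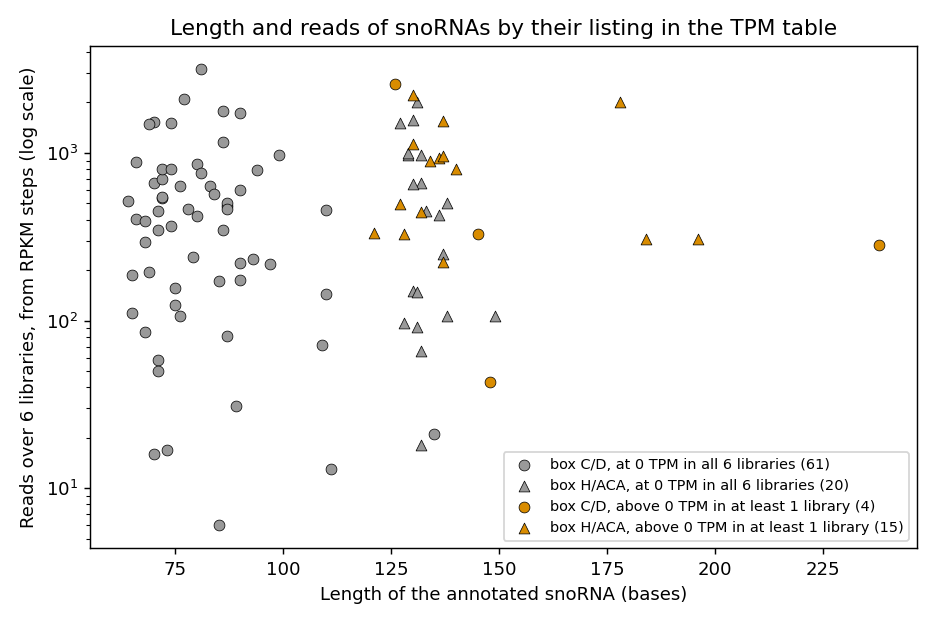
Length of each snoRNA in bases (x axis) against its reads summed over 6 libraries, recovered from RPKM (y axis, log scale), with circles for box C/D, triangles for box H/ACA and colour for the listing in the TPM table. Grey points at 0 TPM reach as high on the read axis as the coloured ones, no point under 121 bases is coloured, and the triangles of both colours overlap in length.

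In the TPM comparison 10 snoRNAs could be tested (at least 1 TPM in at least 3 libraries), 8 box H/ACA and 2 box C/D. Of these, 3 passed the threshold and all were higher in AML, against 30.1% of all 12223 genes tested that passed in either direction (20.1% higher in AML). The 3 were Snora43, Snora78 and Snord22, and a gene that passes the filter through 1 group alone, as Snora43 did, had to differ. Snora43 was listed at 37.5, 10.4 and 39.7 TPM in AML and at 0 in all 3 MPN libraries (adjusted p = 0.000662, limma). No fold is therefore given. It lies in no annotated host, with its shorter entry at chr2:26637848-26637974 on the minus strand. Which of its 2 entries the TPM value covers is not given in the sources. Snora78, in an intron of the snoRNA host gene Snhg9 (chr17:24719676-24719803, minus strand), was at 12.9, 12.8 and 7.15 TPM in AML and 6.04, 0 and 0 TPM in MPN. It passed at an adjusted p of 0.0337 (limma). Snord22, in Snhg1 (chr19:8725866-8725991, plus strand), was at 119, 101 and 55.1 TPM in AML and 0, 46.9 and 0 TPM in MPN (adjusted p = 0.0429, limma). Both calls rest on MPN libraries listed at 0, so no size of difference is given in TPM. In these 3 every AML library was above every MPN library, as in 34.8% of all genes tested.

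In RPKM these 3 differed by less, and of their entries only the longer one of Snora43 passed. Snora78 had 134, 54 and 33 reads in AML and 40, 41 and 27 in MPN, and its log2(RPKM + 1) difference was 0.56 ± 0.24 (SE, adjusted p = 0.114, limma). The 2 MPN libraries listed at 0 TPM thus held 41 and 27 reads (1.94 and 1.36 RPKM), and AML replicate 3, listed at 7.15 TPM, held 33 (2.09 RPKM). Snord22 had 753, 426 and 396 reads in AML and 433, 387 and 195 in MPN, and its difference in RPKM was 0.62 ± 0.26 (SE, adjusted p = 0.109, limma). MPN replicate 1, where Snord22 was listed at 0 TPM, held more of its reads than AML replicates 2 and 3, though per depth it was lower (19.2 RPKM against 19.7 and 24.8). The shorter Snora43 entry had 251, 105 and 22 reads in AML and 60, 32 and 27 in MPN, with overlapping groups and a log2(RPKM + 1) difference of 0.89 ± 0.48 (SE, adjusted p = 0.194, limma). In this entry AML replicate 3, the library with the highest Snora43 TPM (39.7), had the fewest reads, at 1.43 RPKM against 1.37 to 8.93 in the others. In the longer entry AML replicate 3 had 5.02 RPKM, above the MPN libraries (2.5 to 4.47 RPKM). Which entry the TPM value covers is not known. In the TPM fits the Snora78 call ended without AML replicate 1 or 2 or without MPN replicate 2 or 3 (adjusted p 0.0751, 0.0858, 0.102 and 0.118), and that of Snord22 without any 1 of AML replicates 1 to 3 or of MPN replicates 1 and 3 (adjusted p 0.0534 to 0.145). The Snord22 call also ended with array weights (0.442), quantile normalization (0.0535), median scaling (0.0513), no trend (0.0509) and a pseudocount of 0.1 (0.0542). Without the filter both calls ended (adjusted p 0.0666 for Snora78 and 0.0808 for Snord22, limma).

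The 7 tested members that did not pass in TPM had overlapping groups. Snora81 was at 22.3, 26.0 and 15.8 TPM in AML and 21.9, 22.8 and 8.82 TPM in MPN, a log2(TPM + 1) difference of 0.33 ± 0.36 (SE, adjusted p = 0.508, limma). Its RPKM difference on the log2 scale was 0.15. Snora16a, in the host gene Snhg12, was at 8.89, 12.6 and 0 TPM in AML and 45.5, 21.3 and 0 TPM in MPN. Which of its overlapping entries the TPM value covers is not given in the sources, and only the shorter was matched in RPKM. Snora52, in the ribosomal protein gene Rplp2, was at 10, 28.6 and 0 TPM in AML and 26.7, 49.2 and 0 TPM in MPN. Snora70, in the ribosomal protein gene Rpl10, was at 13.8, 20.1 and 0 TPM in AML and 41.1, 36.4 and 0 TPM in MPN. All 3 were listed at 0 in AML replicate 3 and MPN replicate 3. The low members Snord17, Snora23 and Snora74a ranged from 0 to 7.61 TPM, with differences of -0.20, 0.14 and 0.49 on the log2(TPM + 1) scale (adjusted p 0.746, 0.907 and 0.652, limma). Snora23 and Snora74a had libraries listed at 0, so no size of effect is read from their differences.

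The RPKM table allowed a test of 84 entries (30 box H/ACA, 54 box C/D), those with at least 1 RPKM in at least 3 libraries. Of these, 9 rose in AML and 0 fell (limma, adjusted p under 0.05), 6 box H/ACA and 3 box C/D, where 31.3% of all 12811 genes tested passed in either direction (20.5% higher, 10.8% lower). At an unadjusted p under 0.05 there were 18 of the 84, among them Snord89, which was lower in AML. Over all genes the share at that unadjusted threshold is at least the 31.3% that passed after adjustment. In 17 entries every AML library lay above every MPN library, in 1 (Snord89) every one lay below, and in 66 the groups overlapped, while over all genes AML lay above in 35.8% and below in 16.7%. The median difference was 0.30 on the log2(RPKM + 1) scale, in both classes alike, and 0.12 over all genes tested. A positive difference was found for 63 entries and a negative one for 20. Differences ran from -1.32 (Snord14d) to 1.28 (Snora17, adjusted p = 0.0573, limma). A further 19 entries were not tested for low values, and 8 members had no entry. Snora69 passed the filter through the AML group alone and so had to differ.

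Snord104 had the smallest p. It (chr11:106500993-106501062, plus strand, in no annotated host) had 31.2, 28.1 and 20.6 RPKM in AML and 15.2, 13.7 and 16.1 RPKM in MPN. Its lowest AML library stood above the highest MPN library, and it rose by 0.77 ± 0.16 (SE) on the log2(RPKM + 1) scale (adjusted p = 0.0134, limma). The reads behind it were 481, 335 and 181 in AML and 188, 160 and 179 in MPN. Snora69 (chrX:37082912-37083042, minus strand, in an intron of the ribosomal protein gene Rpl39) had 1.65, 2.22 and 1.26 RPKM in AML and 0.766, 0.541 and 0.285 RPKM in MPN. That was 0.82 ± 0.18 higher (SE, adjusted p = 0.0154, limma), from 47, 49 and 20 reads in AML and 17, 11 and 5 in MPN. Few reads thus carried this call, unlike that of Snord104.

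Snora26, in the long non-coding RNA gene Dancr, had 5.14, 3.28 and 3.19 RPKM in AML and 1.89, 1.66 and 0.566 RPKM in MPN. It rose by 1.06 ± 0.27 (SE) on the log2(RPKM + 1) scale (adjusted p = 0.0246, limma), from 48 to 137 reads in AML and 10 to 40 in MPN. The longer Snora43 entry had 16.3, 9.51 and 5.02 RPKM in AML and 4.47, 3.53 and 2.5 RPKM in MPN, with the widest spread of the 9 in AML and a difference of 1.22 ± 0.37 (SE, adjusted p = 0.0458, limma). The values of this entry did not give whole reads. The shorter entry lies inside it, and how reads were divided between them is not known. Snora24, in Snhg8, had 12.7, 8.69 and 10.9 RPKM in AML and 5.66, 7.68 and 4.83 RPKM in MPN, a difference of 0.74 ± 0.19 (SE, adjusted p = 0.0266, limma). Groups did not overlap for any of these, though the gap was narrow for Snora24 and Snora43.

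The other 4 differed by less. Snora68 had 20.5, 15.1 and 17.6 RPKM in AML and 12.2, 13 and 10.1 RPKM in MPN (0.55 ± 0.15 on the log2(RPKM + 1) scale, SE; adjusted p = 0.0295, limma). Snora7a, in Rpl32, had 7.36, 5.70 and 6.92 RPKM against 4.74, 4.85 and 3.91 RPKM (0.48 ± 0.13, SE; adjusted p = 0.0341, limma). Snord55 had 3.66, 3.41 and 3.91 RPKM against 2.2, 2.71 and 2.22 RPKM (0.47 ± 0.11, SE; adjusted p = 0.0223, limma). Snord96a, in the ribosomal scaffold gene Rack1, had 48.8, 40.0 and 40.8 RPKM in AML and 34.7, 32.9 and 29.7 RPKM in MPN (0.40 ± 0.12, SE; adjusted p = 0.0416, limma). All 4 differences were under those of Snora26, Snora43 and Snora69, and Snord96a had the highest mean RPKM of all entries.

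**Figure D3:**
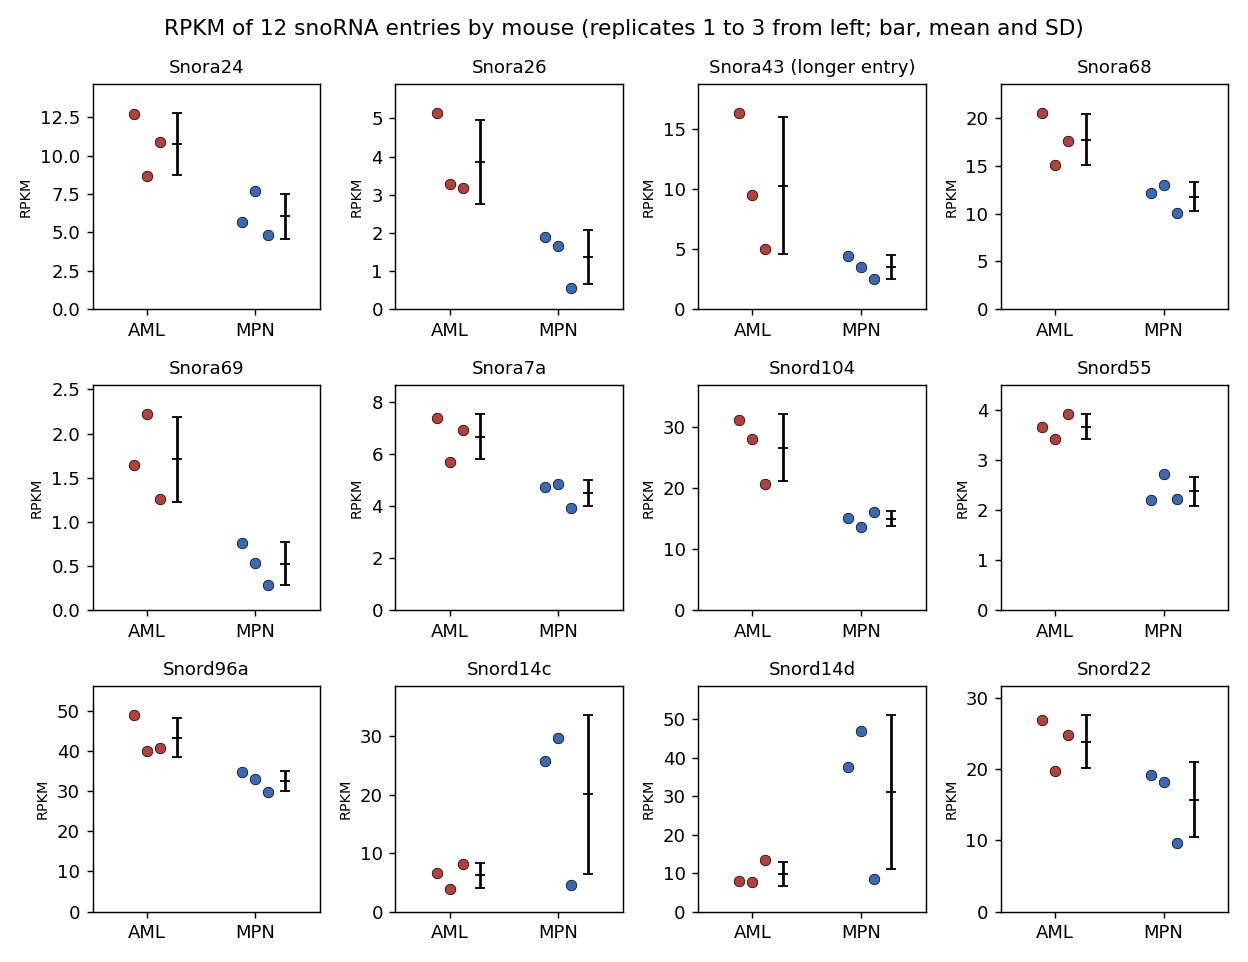
RPKM by mouse of the 9 snoRNA entries that passed in the RPKM table and of Snord14c, Snord14d and Snord22, with AML points left and MPN points right, replicates 1 to 3 from left, and a bar for mean and SD (n = 3). The 9 that passed show no overlap of the groups, whereas Snord14c and Snord14d are high in MPN replicates 1 and 2 only.

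Of these 9 calls none held in all 6 fits that left out 1 mouse. Without AML replicate 1 Snora69, Snord104 and Snord55 remained, without MPN replicate 1 Snora26, Snora69 and Snord104, and without MPN replicate 3 the same 3. Snora69 had to differ, as it passed the filter through the AML group alone, and these fits kept the filter of all 6 libraries. Without MPN replicate 2 Snora24 and Snora26 remained, and Snora69 and Snord104 missed the threshold at adjusted p of 0.0522 and 0.0544. Snora26 missed it only without AML replicate 1, at 0.0613. Without AML replicate 2, 7 of the 9 remained, and without AML replicate 3, 5 of them did. All 9 directions were the same in each such fit. With a term for sex, which leaves AML replicate 3 to be compared with the MPN mice, 0 of the 84 passed.

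MPN replicate 3 stood apart in the snoRNAs. On the log2(RPKM + 1) scale the median snoRNA lay 0.63 below the mean of the other 5 libraries there (-0.63), while AML replicate 1 lay at 0.37 and the other 4 libraries at 0.07 to 0.08. The same measure in MPN replicate 3 was -0.13 for all genes, 0.03 for 85 small nuclear RNAs, -0.13 for 121 microRNAs, -0.24 for 6 small Cajal body RNAs and -0.09 for 67 host genes. MPN replicate 3 was the lowest library for 67 of 84 snoRNAs (79.8%) and for 32.9% of all genes. Without this library the median snoRNA difference between AML and MPN was 0.06, against 0.10 over all genes, so the median of 0.30 depended on it. AML replicate 1, at 0.37 for snoRNAs, lay at 0.37 for host genes and 0.13 for all genes. The median difference without AML replicate 1 was not computed. The relative depth of MPN replicate 3, 0.936, was within the range of the others. What sets this library apart was not tested.

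**Figure D4:**
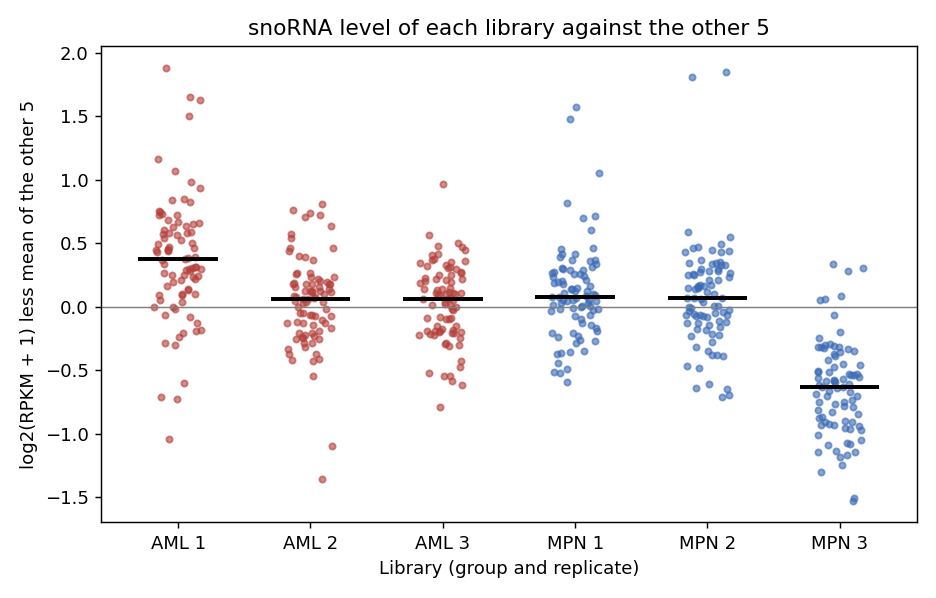
Level of each of the 84 tested snoRNA entries in a library as log2(RPKM + 1) less its mean in the other 5 libraries (y axis), by library (x axis), with a bar at the median. The medians are 0.37 in AML replicate 1, -0.63 in MPN replicate 3 and 0.07 to 0.08 elsewhere.

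Values listed for the copies of U14 in Hspa8 differed widely between the MPN mice. U14 is a conserved C/D snoRNA that serves both cleavage and methylation of the small subunit RNA precursor, and Snord14c and Snord14d lie 1 after the other in Hspa8 (chr9:40803583-40803668 and chr9:40803995-40804080, plus strand), the gene of the constitutive heat shock protein HSC70. Snord14c had 6.62, 3.94 and 8.10 RPKM in AML and 25.8, 29.7 and 4.58 RPKM in MPN. Snord14d had 8.04, 7.75 and 13.3 RPKM in AML and 37.6, 46.8 and 8.50 RPKM in MPN. MPN replicates 1 and 2 were high, and MPN replicate 3 lay in the range of the AML mice. With all libraries neither passed (-1.25 ± 0.64 and -1.32 ± 0.59 on the log2(RPKM + 1) scale, SE; adjusted p 0.172 and 0.128, limma). Without MPN replicate 3 both passed at -2.04 (SE 0.27 and 0.25; adjusted p 0.00827 and 0.00662, limma), so that library decides the call. Hspa8 itself was at 2233, 2227 and 2273 TPM in AML and 2317, 2874 and 2575 TPM in MPN (log2(TPM + 1) difference -0.20, adjusted p = 0.261, limma). Snord14c and Snord14d overlap an annotated exon of Hspa8, so reads of spliced Hspa8 RNA can be among theirs. The values do not tell these sources apart. Snord14a, the copy in the ribosomal protein gene Rps13, had a difference of 0.29 (adjusted p = 0.363, limma), with 57 to 151 reads per library. Both sequences are shown above, and they differ at 2 of 86 bases.

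Other snoRNAs with a known role in cleavage of ribosomal RNA were hard to read. Snord118, known as U8 and needed for the large subunit RNA, was at 0 TPM in every library and had 10, 0 and 3 reads in AML and 4, 1 and 3 in MPN, too few for a comparison. U3, U13 and U17 were not among the symbols and were not analysed here. The 6 highest entries by mean RPKM were Snord96a, Snord47 (in Gas5), Snord2 (in Eif4a2), Snord104, Snord14d and Snord100 (in Rps12), all box C/D and all at 0 TPM in every library. Snord22 came next with the same rounded mean as Snord100 (19.8 RPKM) and was above 0 TPM in 4 libraries. Snord47, Snord2 and Snord100 differed by 0.38, 0.03 and 0.35 on the log2(RPKM + 1) scale and did not pass (adjusted p 0.425, 0.962 and 0.310, limma).

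Of the 110 snoRNAs 105 lie inside a gene on the same strand. These are 77 host genes, and 32 snoRNAs sit in genes of ribosomal proteins named Rpl or Rps. By position, 47 entries of the RPKM table lay in an intron, 51 overlapped an annotated exon of some host transcript and 5 had no host. In TPM 71 hosts were tested, of which 16 rose in AML, 0 fell and 55 did not pass, a share near the 20.1% of all genes tested that rose. The median log2(TPM + 1) difference was 0.31 (0.13 over all genes). Among them were Gnl3 and Ncl, both of the nucleolus, the long non-coding RNA genes Snhg6, Snhg8 and Zfas1, and Nop56 and Nop58 of the C/D complex itself. Host and snoRNA were called together in 1 case. Of 77 tested entries with a tested host, 55 had neither called, 15 the host only, 6 the snoRNA only and 1 both, Snora24 with Snhg8. Snora24 overlaps an annotated exon of Snhg8, as Snora26, Snora68, Snora7a and Snord96a do of their hosts, so reads of spliced host RNA can be among theirs. Snhg8 was at 80.5, 46.0 and 49.4 TPM in AML and 33.5, 36.6 and 30.2 TPM in MPN, 0.75 higher (adjusted p = 0.0367, limma), a call that ended without any 1 MPN library (adjusted p 0.0748 to 0.115).

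Hosts with more than 1 snoRNA show how members of 1 transcript varied. In Rpl13a the 4 snoRNAs Snord32a, Snord33, Snord34 and Snord35a differed by 0.17, -0.08, 0.12 and 0.00 on the log2(RPKM + 1) scale, and none passed. Snhg12 held 4 that were alike, with Snora16a at 0.42, Snora44 at 0.37 and Snora61 and Snord99 at 0.36 each, none of which passed either. In Kansl2, a gene of a histone acetyltransferase complex that rose by 0.74 on the log2(RPKM + 1) scale (adjusted p = 0.0111, limma), Snora2b differed by 0.13 and Snora34 by -0.26. Gnl3 rose by 1.08 on that scale (adjusted p = 0.0151, limma), and its snoRNAs Snord19 and Snord69 differed by 0.31 and 0.87. No test compared a snoRNA with its host.

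**Figure D5:**
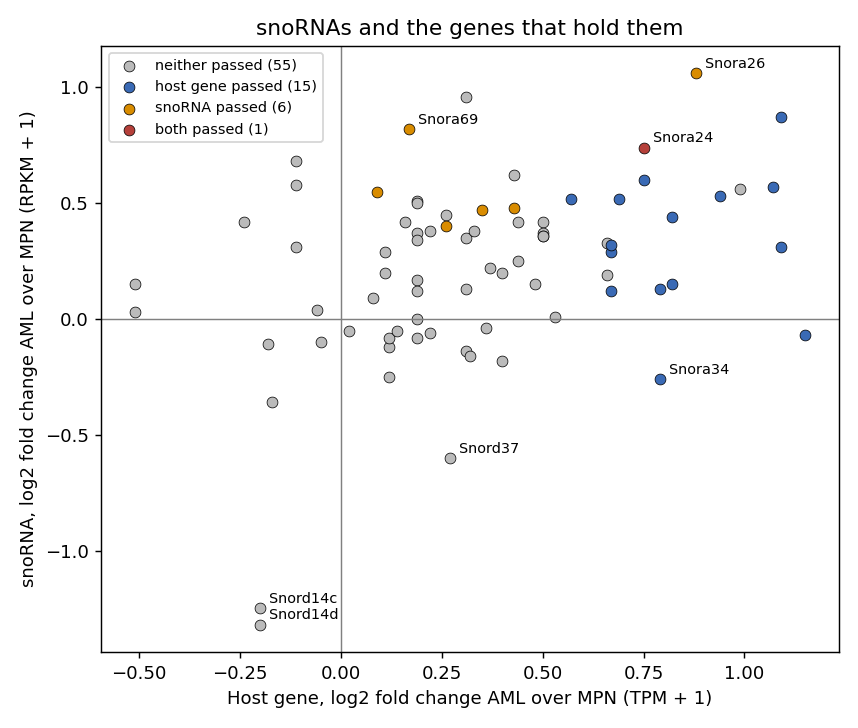
Difference of AML from MPN for each host gene (x axis, log2(TPM + 1)) and for the snoRNA entry in it (y axis, log2(RPKM + 1)), 77 entries coloured by which of them passed. Snora24 is the only point with both called, and Snord14c and Snord14d lie far below their host.

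Transcripts of the 8 core proteins that bind snoRNAs were higher in AML in the fit without a term for sex. The genes of all 4 C/D core proteins rose, which are the methyltransferase fibrillarin (Fbl), Nop56, Nop58 and Nhp2l1 (also Snu13), and so did those of all 4 of the H/ACA core, the pseudouridine synthase dyskerin (Dkc1), Nop10, Nhp2 and Gar1. Of all genes tested 20.1% rose, with a median of 0.13. Fbl was at 499, 373 and 452 TPM in AML and 289, 314 and 275 TPM in MPN (0.58 ± 0.13 on the log2(TPM + 1) scale, SE; adjusted p = 0.0160, limma). Dkc1 was at 143, 118 and 102 TPM in AML and 74.1, 71.4 and 43.8 TPM in MPN (0.95, adjusted p = 0.0183, limma). For Nop56 the means were 286 ± 32.1 and 163 ± 29.1 TPM, for Nop58 198 ± 28.3 and 112 ± 28.5 TPM and for Nhp2l1 228 ± 10.4 and 178 ± 16.9 TPM (SD, n = 3 each). The H/ACA partners Nop10 (220 ± 32.2 and 144 ± 9.02 TPM), Nhp2 (171 ± 31.1 and 108 ± 11.3 TPM) and Gar1 (72.4 ± 11.2 and 40.6 ± 4.82 TPM) showed the same order (SD, n = 3 each). The 8 differences lay between 0.36 for Nhp2l1 and 0.95 for Dkc1 on the log2(TPM + 1) scale. Only Nop56, Dkc1 and Gar1 kept the call in every fit that left out 1 mouse. Nhp2l1 lost it in each, and also with median scaling, quantile normalization or no trend (adjusted p 0.0611, 0.0866 and 0.0761). The call was lost for Fbl, Nhp2 and Nop10 without MPN replicate 3 (adjusted p 0.0589, 0.0659 and 0.0509), Fbl and Nhp2 also without MPN replicate 1 (0.0568 and 0.0569), and Nop58 without AML replicate 1 (0.0508). When sex was added as a term none of the 8 kept its call (0 of 8), though each kept its direction.

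Among factors that assemble and mature the complexes, 20 were tested. Of these 10 rose, 0 fell and 10 did not pass, where 20.1% of all genes rose, and their median was 0.52 (0.13 over all genes). The smallest p belonged to Tcof1 (treacle, 73.7 ± 6.93 TPM in AML and 45.0 ± 4.16 TPM in MPN), Ruvbl2 (an ATPase of the assembly machinery, 162 ± 25.2 and 89.8 ± 12.2 TPM), Shq1 (a chaperone of dyskerin, 19.5 ± 2.72 and 9.84 ± 1.59 TPM) and Rpap3 (an assembly cofactor, 26.5 ± 3.13 and 14 ± 2.36 TPM; SD, n = 3 each). Of 10 partners of U3 in the small subunit processome 6 rose and 4 did not pass, with a median of 0.46, beside the same 20.1% and 0.13 over all genes. Rrp9, a U3 protein, was at 52.6 ± 6.42 and 31.6 ± 3.59 TPM, and Imp3, Wdr43 and Imp4 also rose. Of 18 other structured short RNAs 11 were at 0 TPM in every library, and of 5 tested 1 rose, a share near the 20.1% of all genes. It was Rmrp, the RNA of the RNase that cuts the ribosomal RNA precursor, at 4.12, 4.35 and 3.74 TPM in AML and 1.88, 1.99 and 1.43 TPM in MPN (0.88 ± 0.17 on the log2(TPM + 1) scale, SE; adjusted p = 0.00845, limma). The other 4, Rpph1, Scarna13, Scarna6 and Vaultrc5, did not pass.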

How the data were processed

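TPM values were made with RSEM at gene level and deposited by the authors, per the file headers, with 1 column per mouse. RPKM values were deposited by the authors too, and their steps at low genes show that each gene had got 1 extra read. Per the submitters' processing notes TopHat2, RSEM, Bowtie2, mm9 and mm10 were used, with no version or role. Use of strand in counting is not given in the sources. Members and gene lists were chosen with earlier results of these data known. Named genes were the members and hosts that were tested or passed, the highest members, the textbook processing snoRNAs, the snoRNP core and the smallest p of each other list. Snord14a was named under that rule, and hosts with several snoRNAs after their values were seen. Some host genes are not reported here.

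Values were tested as log2(TPM + 1) or log2(RPKM + 1), which understates changes of low genes, by limma 3.58.1 in R 4.3.3 with trend, for genes at 1 or more in at least 3 of 6 libraries, two-sided, adjusted over all genes by Benjamini-Hochberg, at a threshold of 0.05. The fit was tested on simulated data. Reads were recovered from RPKM with the annotated length. Of 394 single-exon short RNA genes 98.7% lay within 0.1% of 1 constant, and 97.4% of 532 member values of at most 200 reads were within 0.05 of a whole number. Depth is relative only, and TPM keeps none. A count test was not run. Positions come from GENCODE M21 on GRCm38 and 1 member had none. Alternatives were pseudocounts, filters, scalings, limma settings, the RPKM table, leaving out each mouse and a term for sex. Those of the RPKM fit were chosen after seeing the data.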

Additional observations from a re-analysis of the deposited data

How the results depend on the processing

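Most counts kept within 1.5 times of those reported under the alternatives tried, other than those given here. The 3 snoRNAs called in TPM were 1 without the filter, 1 with a term for sex, 9 entries in the RPKM table and 1 to 2 when 1 mouse was left out. The 9 RPKM entries were 3 without the filter, 17 with array weights (13 higher and 4 lower), 0 with a term for sex and 3 to 9 when 1 mouse was left out. All tested genes called, 3678, were 1208 with a term for sex and 2009 to 3705 when 1 mouse was left out. The 18 snoRNP and assembly genes were 0 with a term for sex and 11 to 16 when 1 mouse was left out. The 16 host genes were 31 with array weights, 1 with a term for sex and 8 to 18 when 1 mouse was left out. The cause was not tested, other than that a term for sex leaves 1 AML mouse for the contrast and that fewer mice were fitted.

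Members that did not pass changed direction as follows, on the log2 scale. Snora16a, Snora23, Snora52, Snora70 and Snora74a had libraries listed at 0 TPM, from which no level is read. Their TPM differences here depend on those listings and are not sizes of effect. Snora16a was 0.20 without AML replicate 3, 0.12 without MPN replicate 1 and 0.42 in RPKM. Snora23 was -1.25 with array weights, -0.44 and -0.04 without AML replicates 1 and 3, -0.55 without MPN replicate 1 and -0.25 in RPKM. Snora52 was 0.69 without AML replicate 3, 0.39 without MPN replicate 2 and 0.38 in RPKM. Snora70 was 0.61 without AML replicate 3 and 0.15 and 0.07 without MPN replicates 1 and 2. Snora74a was -0.13 without AML replicate 2 and -0.21 without MPN replicate 3. Snora81 was -0.05 with a term for sex and -0.09 without MPN replicate 3. Snord17 was 0.29 with a term for sex and 0.12 without MPN replicate 2. The far end of the range without 1 mouse was -2.65 for Snora16a, 0.91 for Snora23, -2.44 for Snora52, -2.55 for Snora70, 1.19 for Snora74a, 0.55 for Snora81 and -0.68 for Snord17.

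No paired analysis was possible because replicate numbers were given in accession order and pair no mice. Each group has 3 mice, reads of some members are few, and the near-identical Snord14c and Snord14d are uncertain. Other members whose symbols differ in the last letter were not compared in sequence.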

Other observations

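The inducible heat shock genes Hspa1a and Hspa1b, chosen after their values were seen, were high in the MPN libraries in which Snord14c and Snord14d were high. Hspa1a was at 5.83, 14.3 and 17.9 TPM in AML and 197, 235 and 26.6 TPM in MPN. Hspa1b was at 6.98, 40.2 and 19.2 TPM in AML and 381, 460 and 79.5 TPM in MPN. Both were lower in AML (adjusted p 0.0257 and 0.0125, limma). Dnajb1, a cochaperone, was at 46.2 to 60.1 TPM in AML and 51.0 to 54.3 TPM in MPN and did not pass (adjusted p = 0.840, limma). Hsph1 was at 19.8 to 39.3 TPM in AML and 43.5 to 55.3 TPM in MPN (adjusted p = 0.0504), and Hsp90aa1 lay the other way, with means of 586 ± 58.6 TPM in AML and 420 ± 108 TPM in MPN (SD, n = 3 each; adjusted p = 0.0951), neither passing in limma. Snora17, which lies close to Snora43 on the same strand (chr2:26639190-26639321), had 253, 88 and 28 reads in AML and 30, 27 and 15 in MPN. Its groups overlapped in reads but not in RPKM.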
